A study of Mus musculus with 4 samples.

Results

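The syndecans, the glypicans and Cd44 are proteoglycans that sit on the cell surface and carry long sulfated sugar chains. Transcripts of 9 of their genes were described here in mouse embryonic fibroblasts with and without focal adhesion kinase (FAK), a tyrosine kinase that acts where integrins hold the cell to matrix. The genes were taken by name (Sdc1, Sdc2, Sdc3, Sdc4, Gpc1, Gpc3, Gpc4, Gpc6 and Cd44), with every probe set, the unit of measurement of the array, that is annotated to one of them alone. This gave 26 of 34958 such probe sets. Of the 26, 23 had at least 1 value above log2 8.90, the median of all values on the 4 arrays, and all 9 genes kept at least 1 of these. The whole table held 18194 genes, of which 12290 passed the same level filter.

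Each of 4 groups was hybridised to 1 Affymetrix Mouse Genome 430 2.0 array. The groups were FAK -/- cells given endothelin-1 (ET-1, a vasoactive peptide hormone) for 24 h, FAK -/- cells left untreated, FAK +/+ (wild-type) cells given ET-1 for 24 h, and FAK +/+ cells left untreated. All cells were used at passage 5 and had spent 24 h without serum before treatment. The labels do not say how many embryos or cultures stand behind a genotype, so a difference between lines and the loss of FAK cannot be told apart. No level of the FAK transcript itself is given here, so the labels of genotype were taken as they stand.

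Syndecans span the membrane and mostly carry heparan sulfate chains, which bind growth factors and matrix proteins. Glypicans carry the same chains but are held to the outer leaflet by a lipid (GPI) anchor, and they are known for tuning the reach of FGF, Wnt, Hedgehog and BMP signals. Cd44 is the main receptor for hyaluronan, a sugar polymer of the matrix, and syndecan-4 is a component of focal adhesions, where FAK also acts. In fibroblasts the cytoplasmic tails of syndecans and Cd44 link the matrix to the actin cytoskeleton.

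The genes split in direction between FAK -/- and FAK +/+ cells. Averaged over treatments, Gpc4, Cd44, Gpc1 and Sdc3 fell in the knockout and Gpc3 rose, at 1.98-fold to 3.74-fold. By limma, with p-values adjusted over all 12290 genes at a threshold of 0.05, 5 of the 9 genes were called, against 13.6% of all genes tested. Of these, 4 were lower (7.05% of all genes) and 1 was higher (6.60%). The median difference was -0.53 on the log2 scale over the 9 genes and 0.00 over all genes tested. With 1 array per group, this test weighs a genotype difference by how far it changed between treatment states, and a spread between cultures was not measured.

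**Figure D1:**
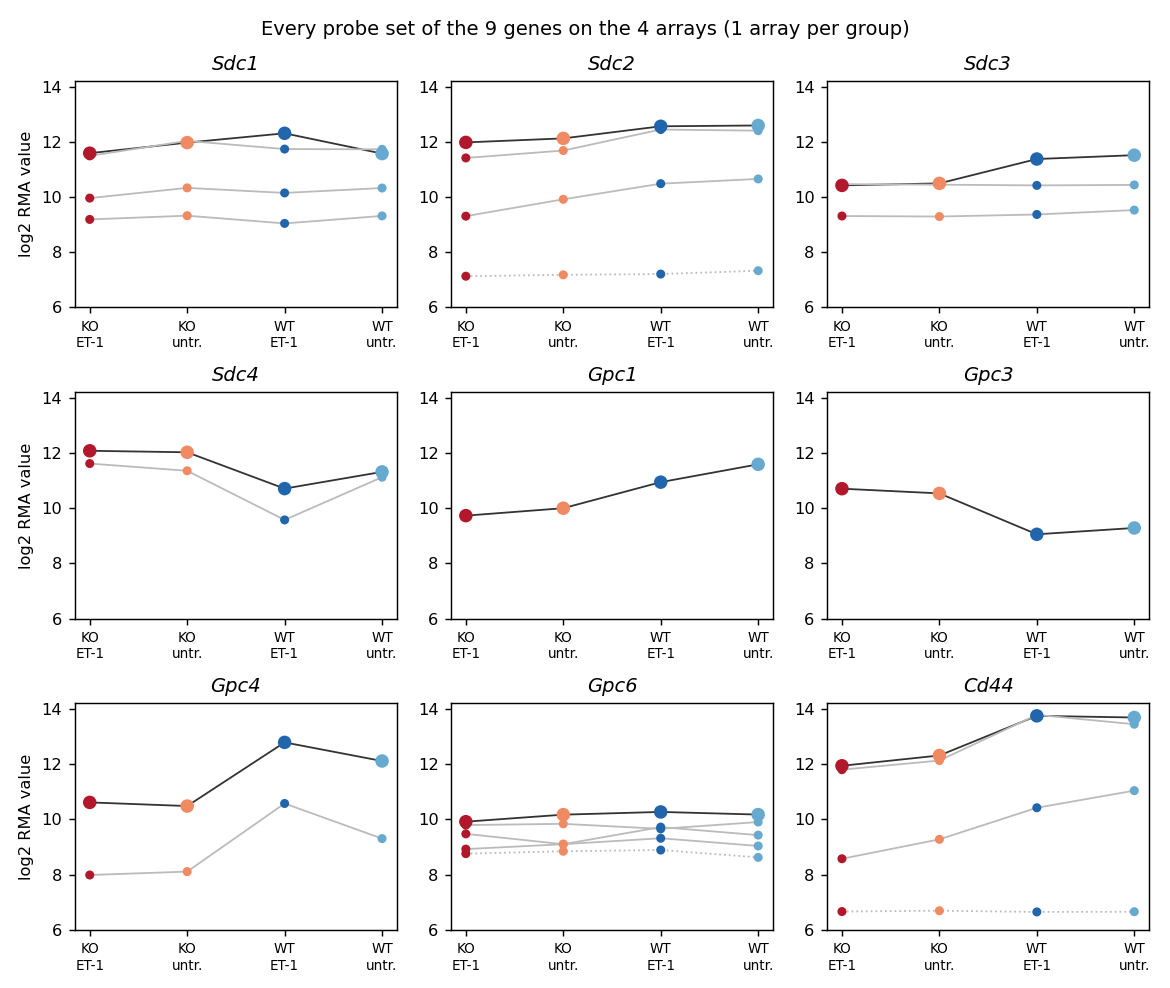
Log2 RMA values (vertical axis) of all 26 probe sets of the 9 genes on the 4 arrays (horizontal axis; KO, FAK -/-; WT, FAK +/+; untr., untreated). Lines join the values of 1 probe set, with the brightest probe set of a gene in black with large points, the others in grey, and those below the level filter dotted. The knockout points of Gpc4, Gpc1 and Cd44 lie below the wild-type points in all probe sets above the filter, and those of Gpc3 lie above them. The dimmer Gpc4 probe set passed the filter through wild type alone.

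The arrays were not alike in a gauge of RNA quality. Gapdh and Actb control transcripts are read at both ends, and the gap between the ends is a common gauge of RNA quality. For wild-type cells given ET-1, the log2 gap from 3' to 5' was 3.79 for Gapdh, against 0.85 to 0.90 on the other 3 arrays, and 1.81 for Actb, against 0.66 to 1.30. The cause of the wide gap on this array was not tested. That array is part of each limma value, of the genotype difference after ET-1 and of the wild-type ET-1 difference. The genotype difference in untreated cells does not use it. In untreated cells alone, 5 of the 9 genes differed by 2-fold or more (9.37% of all genes), with Gpc1, Gpc4, Cd44 and Sdc3 lower (4.59% of all genes) and Gpc3 higher (4.78%). Sdc3 left this count with array medians subtracted (-0.98) and with the mean of all its probe sets (-0.42).

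The 250 bases before the annotated start of 4 of the 5 called genes are shown because 3 of these genes fell and 1 rose, and because the 2 glypicans among them are neighbours on the X chromosome with 0 annotated genes between them. They come from RefSeq (GRCm38.p6), where 6 of the 9 genes had an entry. Capitals mark GGGCGG, the GC box, and TATAA, each searched on both strands and free to overlap. Gpc3 is chrX:52613975-52614224 and Gpc4 is chrX:52164924-52165173, both on the minus strand. Cd44 is chr2:102901666-102901915 on the minus strand and Sdc3 is chr4:130792287-130792536 on the plus strand.
Gpc3: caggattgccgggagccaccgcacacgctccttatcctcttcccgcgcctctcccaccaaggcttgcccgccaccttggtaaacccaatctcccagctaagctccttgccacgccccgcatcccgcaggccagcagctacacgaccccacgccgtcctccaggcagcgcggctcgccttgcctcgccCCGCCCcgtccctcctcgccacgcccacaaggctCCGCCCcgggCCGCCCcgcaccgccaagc
Gpc4: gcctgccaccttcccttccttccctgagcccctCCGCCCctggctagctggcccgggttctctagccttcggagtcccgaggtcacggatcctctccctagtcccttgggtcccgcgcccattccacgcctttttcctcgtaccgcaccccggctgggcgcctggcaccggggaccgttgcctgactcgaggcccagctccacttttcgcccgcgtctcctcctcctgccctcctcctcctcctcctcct
Cd44: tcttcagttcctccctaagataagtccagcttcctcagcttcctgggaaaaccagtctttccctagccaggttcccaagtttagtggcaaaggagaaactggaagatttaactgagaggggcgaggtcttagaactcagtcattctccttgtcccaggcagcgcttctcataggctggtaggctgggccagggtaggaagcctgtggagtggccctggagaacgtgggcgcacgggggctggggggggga
Sdc3: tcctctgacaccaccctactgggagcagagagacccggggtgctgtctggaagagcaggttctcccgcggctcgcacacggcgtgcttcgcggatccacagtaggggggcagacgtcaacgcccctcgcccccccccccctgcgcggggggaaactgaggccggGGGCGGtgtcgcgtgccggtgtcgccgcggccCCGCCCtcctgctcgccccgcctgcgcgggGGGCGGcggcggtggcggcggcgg
The window of Gpc3, the gene that rose, held 3 GC boxes, and those of Gpc4, Cd44 and Sdc3, which fell, held 1, 0 and 3. None of the 4 windows held TATAA. Of 32851 windows of this length in the table, 32.7% held a GC box and 22.8% held TATAA. G and C made up 71.6% of the Gpc3 window, 68.4% of the Gpc4 window, 56.4% of the Cd44 window and 76.4% of the Sdc3 window, and the median of all windows was 52.4%. A match describes the letters only.

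Among the glypicans, Gpc4 had the lowest values in the knockout relative to wild type. Its brightest probe set read 10.61 after ET-1 and 10.48 untreated in knockout cells, against 12.78 after ET-1 and 12.11 untreated in wild-type cells, on the log2 scale. Both knockout values lay below both wild-type values, at 4.51-fold lower after ET-1 and 3.10-fold lower in untreated cells. By limma Gpc4 fell by 1.90 ± 0.20 (SE, log2, adjusted p = 0.0143). Glypican-4 is known as a co-receptor for Wnt ligands and, in astrocytes, as a secreted factor that helps synapses form.

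The second Gpc4 probe set (1436514_at) was dimmer and showed a similar mean with a wider gap between treatment states. It read 7.98 after ET-1 and 8.10 untreated in the knockout, against 10.57 after ET-1 and 9.30 untreated in wild type. The knockout values lay below the level filter, so this probe set passed through wild type alone, which favours a fall. In a limma fit over all 20939 probe sets above the filter its difference was -1.89 ± 0.38, with an adjusted p of 0.0776, while the brightest Gpc4 probe set was called there (adjusted p = 0.0313).

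Gpc3 was the 1 member called as higher. The values of its only probe set were 10.70 after ET-1 and 10.53 untreated in knockout cells and 9.05 after ET-1 and 9.28 untreated in wild-type cells. The genotypes did not overlap, and the wild-type values were close to the level filter. Gpc3 was 3.14-fold higher after ET-1 and 2.38-fold higher in untreated cells, and it rose by 1.45 ± 0.14 by limma (adjusted p = 0.0111). Glypican-3 restrains growth: mice without it overgrow, and loss of the human gene causes Simpson-Golabi-Behmel overgrowth syndrome. Adjacent on the X chromosome, Gpc3 and Gpc4 thus had genotype differences of opposite sign in both treatment states.

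Gpc1 fell in the knockout. It had 1 probe set, at 9.73 after ET-1 and 10.00 untreated in knockout cells, against 10.94 after ET-1 and 11.59 untreated in wild-type cells. All knockout values were below all wild-type values. The size was 2.32-fold after ET-1 and 3.01-fold in untreated cells, and the limma difference was -1.40 ± 0.15 (adjusted p = 0.0138). Glypican-1 binds FGF2 and VEGF through its heparan sulfate and is widely expressed in mesenchymal cells.

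Gpc6, a glypican needed for growth of the long bones, had no called difference. Its brightest probe set read 9.91 after ET-1 and 10.17 untreated in the knockout, against 10.27 after ET-1 and 10.17 untreated in wild type. The untreated arrays differed by -0.003 and the ET-1-treated arrays by -0.35. By limma the difference was -0.18, with a 95% interval of -0.54 to 0.19 (adjusted p = 0.456). The 3 other probe sets above the filter had limma differences of 0.04, -0.16 and -0.29 in the fit over probe sets, and 0 of the 4 was called. The remaining one (1437417_s_at) stayed below the filter, at 8.62 to 8.89.

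The remaining glypicans on the array that were annotated alone, Gpc2 and Gpc5, were dim in every group. Gpc2 read 6.07 to 6.66 and Gpc5 read 6.83 to 6.97 over the 4 arrays, so neither was tested.

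Syndecans varied among themselves. Sdc3, the large syndecan known from nerve and muscle development, was called by its brightest probe set (1450027_at). That probe set read 10.42 after ET-1 and 10.49 untreated in knockout cells, against 11.38 after ET-1 and 11.52 untreated in wild-type cells. By limma it fell by 0.99 ± 0.13 (adjusted p = 0.0214), with both knockout values below both wild-type values. The other 2 probe sets of Sdc3 did not show this gap. One (1420853_at) read 10.46 after ET-1 and 10.45 untreated in the knockout, against 10.42 after ET-1 and 10.44 untreated in wild type, a limma difference of 0.03 ± 0.11. The other (1436482_a_at) differed by -0.14 ± 0.11. With the mean of all 3 probe sets, Sdc3 differed by -0.37 and was not called (adjusted p = 0.0813). The call for Sdc3 therefore rests on 1 of its 3 probe sets.

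Sdc2, the syndecan most typical of fibroblasts and other mesenchymal cells, was lower in the knockout in each of its 3 probe sets above the filter, though none was called. The brightest (1448545_at) read 11.98 after ET-1 and 12.12 untreated in knockout cells, against 12.56 after ET-1 and 12.59 untreated in wild-type cells. Its limma difference was -0.53, with a 95% interval of -0.99 to -0.07 (adjusted p = 0.132). Dimmer probe sets had larger gaps. On 1417011_at the knockout had 11.41 after ET-1 and 11.68 untreated, against 12.44 after ET-1 and 12.40 untreated in wild type. On 1417012_at the knockout had 9.31 after ET-1 and 9.92 untreated, against 10.48 after ET-1 and 10.65 untreated in wild type. Their limma differences over probe sets were -0.87 ± 0.18 (adjusted p = 0.0830) and -0.96 ± 0.15 (adjusted p = 0.0533). With the mean of all Sdc2 probe sets the gene was called, at -0.62 ± 0.11 (adjusted p = 0.0353). The remaining probe set lay below the filter at 7.13 to 7.33.

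Sdc4, the syndecan of focal adhesions, pointed the other way. Its brightest probe set (1448793_a_at) read 12.08 after ET-1 and 12.02 untreated in knockout cells, against 10.71 after ET-1 and 11.31 untreated in wild-type cells. The knockout values were the higher ones, at 2.58-fold after ET-1 and 1.64-fold in untreated cells. The limma difference was 1.04 ± 0.23, with an adjusted p of 0.0628, so the gene was not called. Subtracting array medians (adjusted p = 0.0166) or quantile normalization (adjusted p = 0.049995) moved it past the threshold.

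The lowest Sdc4 values were those of wild-type cells given ET-1, whose array had the wide end-to-end gap. On the second Sdc4 probe set (1417654_at) the knockout had 11.61 after ET-1 and 11.35 untreated, against 9.57 after ET-1 and 11.12 untreated in wild type. The genotype difference there was 2.04 after ET-1 and 0.23 in untreated cells. The part of RNA quality in this value was not tested.

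Sdc1, the syndecan best known from epithelia and plasma cells, showed no stable direction between genotypes. The brightest probe set (1437279_x_at) read 11.59 after ET-1 and 11.97 untreated in the knockout, against 12.31 after ET-1 and 11.57 untreated in wild type. It was higher in the knockout in untreated cells (0.40) and lower after ET-1 (-0.72), and the genotypes overlapped. The limma difference was -0.16, with a 95% interval of -1.06 to 0.74 (adjusted p = 0.804), which leaves room for a 2-fold fall. On the next probe set (1415943_at) the values were 11.49 after ET-1 and 12.03 untreated in the knockout and 11.74 after ET-1 and 11.73 untreated in wild type. The 2 dimmer probe sets differed by -0.09 ± 0.12 and 0.08 ± 0.11 between genotypes by limma.

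Cd44 differed alike in its 3 probe sets above the filter. The brightest (1434376_at) read 11.94 after ET-1 and 12.31 untreated in knockout cells, against 13.75 after ET-1 and 13.69 untreated in wild-type cells. On 1423760_at the knockout had 11.80 after ET-1 and 12.13 untreated, against 13.78 after ET-1 and 13.44 untreated in wild type. On 1452483_a_at the knockout had 8.57 after ET-1 and 9.27 untreated, against 10.42 after ET-1 and 11.04 untreated in wild type. In all 3, both knockout values lay more than 2-fold below both wild-type values. The gene was 3.50-fold lower after ET-1 and 2.59-fold lower in untreated cells by its brightest probe set. By limma it fell by 1.59 ± 0.18 (adjusted p = 0.0163), and in the fit over probe sets the 3 differences were -1.59, -1.65 and -1.81, all called. The remaining probe set (1443265_at) was flat below the filter, at 6.64 to 6.69.

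**Figure D2:**
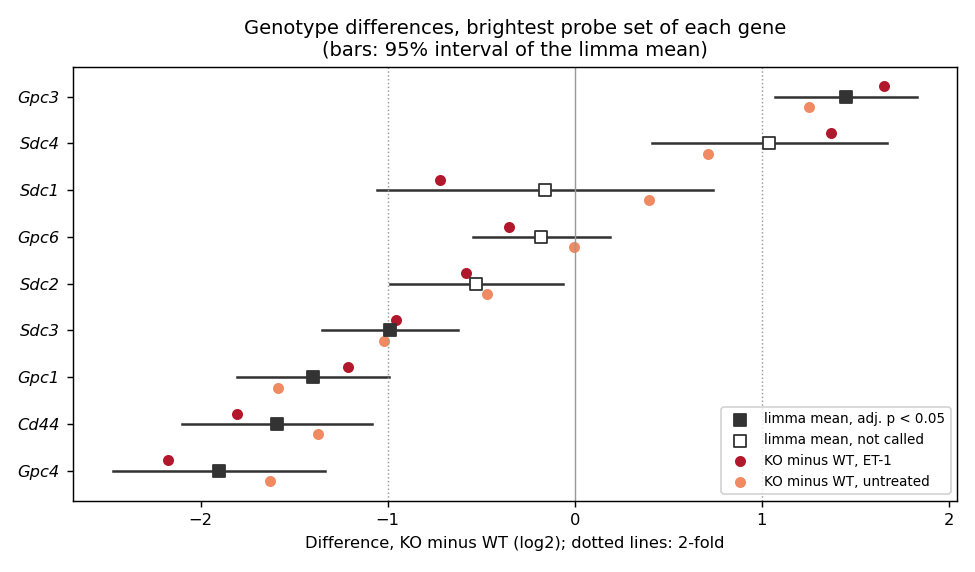
Knockout minus wild-type differences (horizontal axis, log2) of the brightest probe set of each gene (rows). Red points are ET-1-treated cells, orange points untreated cells, and squares the limma mean with its 95% interval, filled where the adjusted p is under 0.05. Gpc4, Cd44, Gpc1 and Sdc3 lie left of 0, Gpc3 and Sdc4 right of it, and the 2 states of Sdc1 lie on opposite sides.

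Over probe sets, 7 of the 23 were called for genotype by limma, against 8.45% of 20939, with 6 lower (4.27% of all) and 1 higher (4.17%). The probe sets of 1 gene share its transcripts and are not independent. Both knockout values lay below both wild-type values in 6 of the 9 genes, where 29.3% of all genes did so, and above them in 2 of the 9 (30.0% of all genes). The 6 were Sdc2, Sdc3, Gpc1, Gpc4, Cd44 and Gpc6. Gpc6 entered by an untreated difference of only -0.003, and its probe sets 1428774_at and 1419689_at overlapped between genotypes. At 2-fold or more in both treatment states, 3 genes were lower (Gpc1, Gpc4 and Cd44; 4.0% of all genes) and 1 was higher (Gpc3; 3.47%). After ET-1, 5 genes differed by 2-fold or more (12.1% of all genes), with Sdc4 and Gpc3 higher (5.61%) and Gpc1, Gpc4 and Cd44 lower (6.53%).

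For ET-1, no member passed the test. No member differed by 2-fold or more after 24 h of ET-1 by its brightest probe set in the knockout (0.513% of all genes did) or in wild type (1.95%). Averaged over genotypes, 0 of the 9 genes and 0 of all 12290 genes (0.00%) were called by limma, where 643 of all genes had an unadjusted p under 0.05. By their brightest probe sets, only Gpc1 of the members had an unadjusted p under 0.05, at a mean ET-1 difference of -0.46 ± 0.15 (adjusted p = 0.780). It was lower after ET-1 in both genotypes, by -0.27 in the knockout and -0.65 in wild type. In the limma fit over probe sets, Cd44 1452483_a_at (-0.66 ± 0.10) and Gpc6 1441438_at (0.33 ± 0.10) also had an unadjusted p under 0.05, with an adjusted p of 0.817 for each. In a fit that rests on 1 residual degree of freedom, a count of 0 does not show that ET-1 left these genes unaltered.

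**Figure D3:**
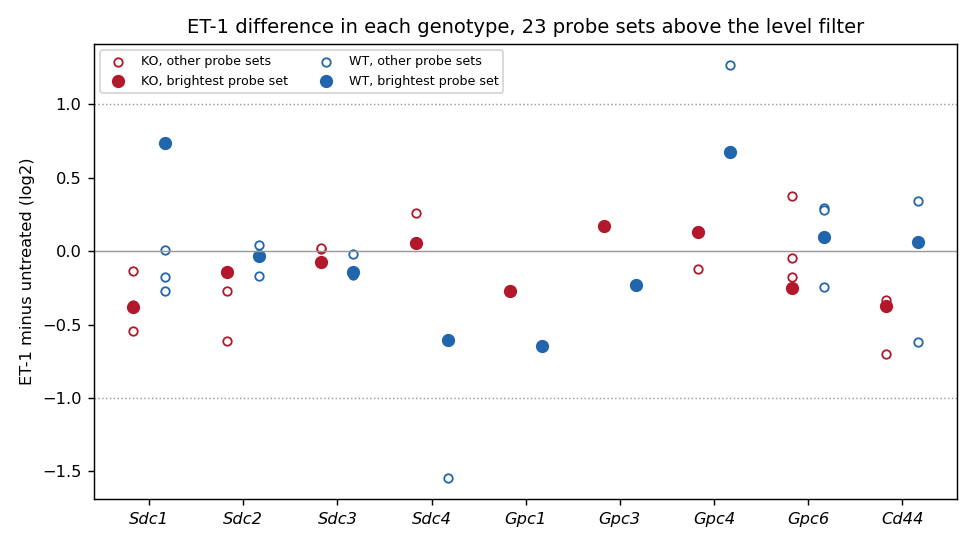
ET-1 minus untreated differences (vertical axis, log2) of the 23 probe sets above the level filter, by gene (horizontal axis), in knockout (red) and wild-type (blue) cells. Filled points are the brightest probe set of a gene and open points the others. The knockout points lie between -0.70 and 0.37, and the wild-type points run from -1.55 for a probe set of Sdc4 to 1.27 for one of Gpc4.

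In the knockout, ET-1 differences of the brightest probe sets ran from -0.38 for Sdc1 and -0.37 for Cd44 to 0.17 for Gpc3. Cd44 was lower after ET-1 in all 3 of its bright probe sets there, at -0.37, -0.33 and -0.70. All 4 Sdc1 probe sets were lower as well, at -0.14 to -0.54. In wild type the range was wider. Sdc1 (0.73) and Gpc4 (0.67) were highest, and Gpc1 (-0.65) and Sdc4 (-0.61) were lowest. The second probe sets of Gpc4 and Sdc4 reached 1.27 and -1.55 in wild type. By contrast, 2 other Sdc1 probe sets had wild-type differences of -0.18 and -0.27 and 1 had 0.01. These wild-type values all involve the array with the wide end-to-end gap, whose part in them was not tested. Across all genes the SD of the ET-1 difference was 0.23 among knockout arrays, against 0.39 among wild-type arrays.

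The enzymes that build and trim the sugar chains were examined next, from lists chosen by function. Among 10 genes tested for the shared linker and the heparan sulfate backbone, 0 was called for genotype (13.6% of all genes were). The median difference was -0.06. Xylose and galactose transferases start the chain, and the exostosins Ext1 and Ext2 extend it. Ext1 differed by -0.63 ± 0.26 (adjusted p = 0.210 by limma) and Ext2 by 0.05 ± 0.17.

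Enzymes that sulfate, epimerise or trim heparan sulfate came next. Of 14 tested, 4 rose (6.60% of all genes did) and 1 fell (7.05%) in the knockout, with a median of -0.01. The largest change was in Sulf1, an extracellular 6-O-endosulfatase that strips sulfate from finished chains. It read 13.15 after ET-1 and 13.17 untreated in knockout cells, against 10.28 after ET-1 and 10.37 untreated in wild-type cells, and rose by 2.84 ± 0.16 (limma, adjusted p = 0.00610). Its relative Sulf2 rose by 1.01 ± 0.17 (adjusted p = 0.0348). The 6-O-sulfotransferase Hs6st1, which adds the sulfate that the Sulf enzymes remove, rose by 1.36 ± 0.11, and the 3-O-sulfotransferase Hs3st1 rose by 0.85 ± 0.11. Hs3st1 passed the level filter through 1 knockout array alone (8.92, against 7.74 after ET-1 and 8.16 untreated in wild type), so it was tested only because it was high there. Glce, the epimerase that makes iduronic acid, fell by 0.89 ± 0.17 (adjusted p = 0.0495). That call was lost when its probe sets were averaged (-0.25, adjusted p = 0.222), and averaging gave 1.99 for Sulf1.

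Chondroitin and dermatan sulfate enzymes, which modify the other chain type that Sdc1, Sdc4 and Cd44 can carry, were lower or not called. Of 12 tested, 4 fell (7.05% of all genes did) and 0 rose (6.60%), and the median was -0.38, against 0.00 over all genes. Csgalnact1, which starts a chondroitin chain, fell by 1.71 ± 0.15 (limma, adjusted p = 0.00995). The epimerase Dse, which turns chondroitin into dermatan sulfate, fell by 1.37 ± 0.17, and the sulfotransferases Chst12 (-0.82 ± 0.14) and Chst15 (-0.77 ± 0.09) fell. Csgalnact1 read 7.22 after ET-1 and 7.32 untreated in the knockout, below the filter, and Chst15 read 8.80 and 8.57 there. Both thus passed the filter through wild type alone, which favours a fall. They are part of the count and the median above, and their sizes are uncertain.

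**Figure D4:**
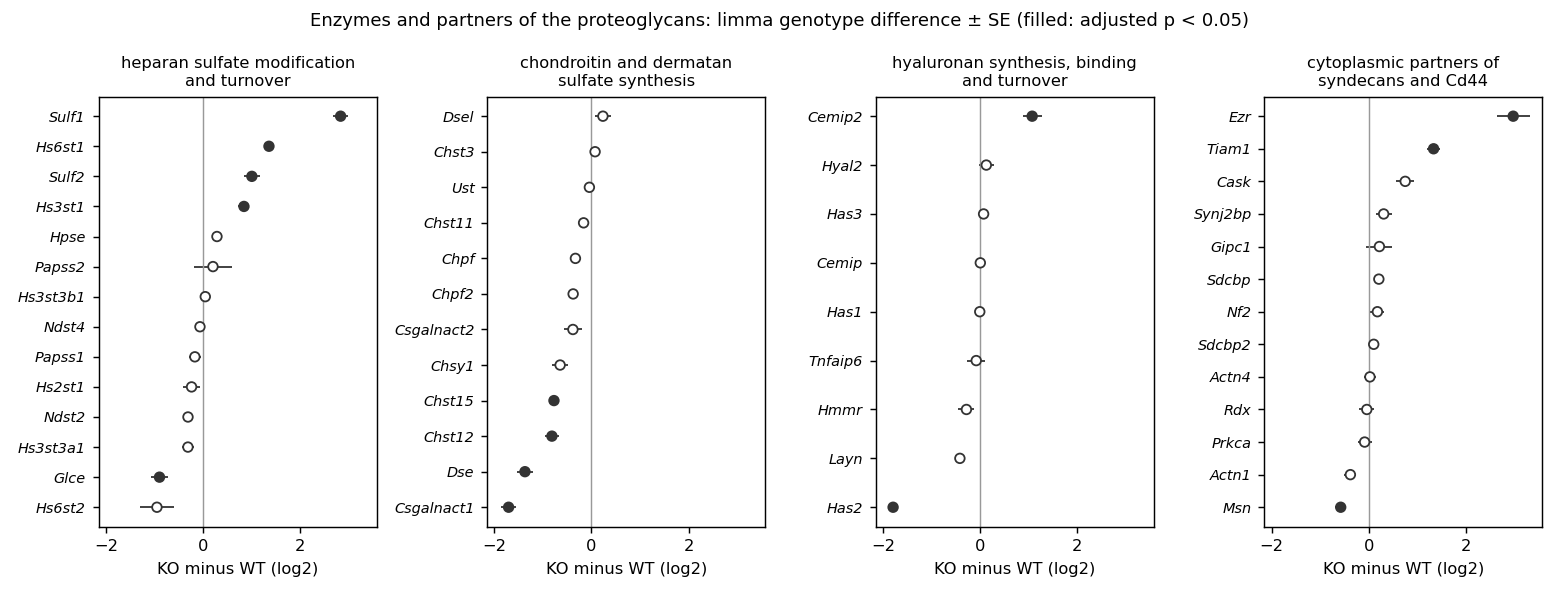
Limma genotype difference, knockout minus wild type (horizontal axis, log2), with its SE as bars, for the tested genes of 4 lists (panels, 1 gene per row). Filled points have an adjusted p under 0.05. Sulf1 and Ezr lie near 3 on the right, and Has2 and Csgalnact1 lie on the left below -1.7.

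Of 9 tested genes of hyaluronan synthesis, binding and turnover, 1 fell and 1 rose, with a median of -0.01, where 13.6% of all genes were called. Has2, the main hyaluronan synthase of fibroblasts, read 8.11 after ET-1 and 8.06 untreated in knockout cells, against 9.85 after ET-1 and 9.91 untreated in wild-type cells. It fell by 1.79 ± 0.10 (limma, adjusted p = 0.00586), with both knockout values below the level filter, so it passed through wild type alone. Cemip2, a cell-surface protein linked to hyaluronan breakdown, rose by 1.07 ± 0.19 (adjusted p = 0.0421), a call lost with no filter (adjusted p = 0.0687) and without the intensity trend (adjusted p = 0.0626). Hmmr, another hyaluronan-binding protein, differed by -0.28 ± 0.16.

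Cytoplasmic partners included the ezrin, radixin and moesin proteins, which tie the Cd44 tail to actin. Ezrin (Ezr) read 14.41 after ET-1 and 14.48 untreated in knockout cells, against 10.81 after ET-1 and 12.12 untreated in wild-type cells. It rose by 2.98 ± 0.34 (limma, adjusted p = 0.0162), or by 1.59 when its probe sets were averaged. Moesin (Msn) fell by 0.58 ± 0.11 (adjusted p = 0.0464), a call lost with the mean of its probe sets (adjusted p = 0.545), and radixin (Rdx) differed by -0.04 ± 0.15. Tiam1, a Rac exchange factor that binds the syndecan-1 tail through its PDZ domain, rose by 1.34 ± 0.13. It was not tested with the mean of its probe sets, which did not pass the level filter. Syntenin (Sdcbp), the PDZ adaptor of all syndecans, differed by 0.21 ± 0.10 (adjusted p = 0.252), and Prkca, the kinase that syndecan-4 activates, by -0.08 ± 0.15. In all, 2 of 13 partners rose (6.60% of all genes did) and 1 fell (7.05%), with a median of 0.18.

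Of 9 tested genes for shedding and release, Mmp2, a gelatinase, fell by 1.23 ± 0.17 (limma, adjusted p = 0.0253) and 0 rose. Over all genes, 7.05% fell and 6.60% rose. The syndecan and Cd44 sheddases Adam17 (-0.16 ± 0.17) and Adam10 (0.25 ± 0.15) were not called, and neither was Mmp14 (-0.55 ± 0.25), a membrane protease that cuts Cd44. Among 5 tested heparan sulfate proteoglycans and part-time proteoglycans outside the families, Nrp1 (neuropilin-1, -1.98 ± 0.23) and Col18a1 (-0.99 ± 0.16) fell. Agrn (agrin) rose by 1.14 ± 0.21 (adjusted p = 0.0433 by limma), or by 0.58 when its probe sets were averaged. Perlecan (Hspg2) differed by 0.01 ± 0.16.

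Cell type markers moved with genotype beside these genes. Over all genes tested, 6.60% were called as higher in the knockout and 7.05% as lower. Of 11 tested fibroblast markers 9 fell and 0 rose, among them Pdgfrb (-3.99 ± 0.22), Thy1, Prrx1, Twist2, S100a4 and Col1a1, while Col3a1 and Twist1 were not called. The linear levels of the 12 listed fibroblast markers summed to 66734 after ET-1 and 81533 untreated in the knockout, against 177345 after ET-1 and 163950 untreated in wild type. Of 5 mesothelial markers (genes of the lining of body cavities) 4 rose, namely Wt1 (4.09 ± 0.45), Lrrn4, Upk1b and Msln. The fifth, Upk3b, was not called (adjusted p = 0.0607 by limma). It read 14.66 after ET-1 and 14.75 untreated in the knockout, against 8.88 after ET-1 and 12.39 untreated in wild type. With Upk3b, the mesothelial sums were 65933 after ET-1 and 76010 untreated in the knockout, against 6340 after ET-1 and 14210 untreated in wild type. Of 8 tested epithelial markers 4 rose (Krt7, Krt8, Krt18 and Dsp) and 1 fell (Krt19). Dsp passed the level filter through the knockout alone (7.30 after ET-1 and 7.69 untreated in wild type), which favours a rise. Krt19 passed through wild type alone (7.99 after ET-1 and 8.86 untreated in the knockout), which favours a fall. The epithelial markers not called were Epcam (11.69 to 12.08 over the 4 arrays), Cldn4 (8.97 to 9.25) and Krt14. Krt14 read 13.61 after ET-1 and 13.88 untreated in the knockout, against 8.45 after ET-1 and 11.69 untreated in wild type. Its adjusted p by limma was 0.0568, and its levels enter the epithelial sums. Cdh1 was not tested and stayed at 5.74 to 5.95 on all arrays. The epithelial sums were 31317 after ET-1 and 39594 untreated in the knockout, against 9891 after ET-1 and 14556 untreated in wild type. All sums for wild type after ET-1 come from the array with the wide end-to-end gap, whose part in them was not tested.

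Markers of other cell types were mixed in level. The leukocyte gene Ptprc read 6.58 to 6.70, and the endothelial genes Pecam1 and Cdh5 read 7.44 to 7.76, below the filter. Above it on every array were Csf1r (10.04 to 11.36), Kdr (10.14 to 10.63), Myod1 (9.41 to 9.53), Des (9.23 to 9.67) and Adgre1 (8.99 to 9.14). Of 3 tested macrophage and leukocyte markers 1 rose (Csf1r) and 1 fell (Cd14), and 0 of 1 endothelial and 0 of 2 muscle markers was called. Cd14 passed the level filter through wild type alone (8.60 after ET-1 and 8.70 untreated in the knockout), which favours a fall. In bulk cells, a lower share of cells of a type and less transcript per cell cannot be told apart. The part of cell type makeup in the differences of Cd44, the syndecans and the glypicans was not tested.

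The genes most like the 3 widest-ranging members were found by the distance between mean-centred log2 values over the 4 arrays. Nearest to Gpc4 were Fam217b (distance 0.07), Zfp760 (0.09) and Ccdc82 (0.12). Zfp760 passed the level filter through the ET-1-treated wild-type array alone (9.19, against 8.52 untreated in wild type and 6.97 on each knockout array). Nearest to Gpc1 were the Wnt receptor gene Fzd8 (0.08), the matrix crosslinking enzyme gene Loxl4 (0.15) and the homeobox gene Hoxa10 (0.22). For Cd44 they were Ppp1r3d (0.14), Slco3a1 (0.15) and Sri (0.15). Over 4 arrays such a likeness is a description only.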

How the data were processed

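The deposited table holds log2 values, made by the authors with RMA per the submitters' processing notes; its version and a genome build are not given in the sources used here. Per the labels' protocols, 100 ng of total RNA was amplified and biotin-labelled in 2 cycles, a method that can lose signal toward the 5' end. The values run from 5.00 to 15.24, and were used as deposited. The platform's annotation named 34958 probe sets with 1 gene, 932 with several and left 9211 of 45101 unlisted. By Entrez identifier 34754 of the first matched RefSeq (GRCm38).

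Each gene was its brightest probe set by mean. Genes with no value above log2 8.90, the median of all values, were left out. With limma 3.58.1 in R 4.3.3 (lmFit, then eBayes with trend), all 4 arrays entered 1 model with additive terms for genotype and for treatment. The interaction is its 1 residual degree of freedom, and the prior counts as 2.996 more. P-values were adjusted by Benjamini-Hochberg over 12290 genes, or over 20939 probe sets in a second fit, at 0.05. The fit was tested on simulated data, where most large changes were recovered and changes of 2-fold were not called. The simulated spread was drawn at random around a common scale from the interaction terms, and was not matched to each gene or array. It therefore does not check real calls of 2-fold or less, such as that of Sdc3. Differences between 2 arrays have no test, and the number of arrays limits their precision. Python 3.11.15 with numpy 2.4.6, pandas 2.3.3 and matplotlib 3.10.9 did the rest.

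The members, lists and tests were chosen with earlier results of these data known. Named are all members, Gpc2 and Gpc5, called list genes (up to 6 a list, by the smaller genotype difference), up to 2 uncalled genes a list whose role was needed, and the 3 nearest genes of the 3 widest-ranging members. Further uncalled genes (Hmmr, Rdx, Prkca, Adam10, Adam17, Mmp14, Col3a1, Twist1, Epcam, Cldn4, Krt14, Upk3b and markers of other cell types) were named after their values were seen. Alternatives were the filter, normalization, eBayes trend, probe set summary and fold threshold.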

Additional observations from a re-analysis of the deposited data

Results flagged for a closer look

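With 1 array per group, an opposite direction in 2 groups was not tested, and small values can differ in sign by noise alone. Sdc1 was lower in the knockout after ET-1 (-0.72) and higher in untreated cells (0.40), and its ET-1 difference was -0.38 in the knockout and 0.73 in wild type, a gap of -1.12 on the log2 scale. Of its 3 other probe sets, 1 had opposite ET-1 signs, at -0.54 in the knockout and 0.01 in wild type. The ET-1 difference of Sdc4 was 0.05 in the knockout and -0.61 in wild type (gap 0.66). For Gpc3 it was 0.17 in the knockout and -0.23 in wild type (gap 0.40), and for Cd44 -0.37 in the knockout and 0.06 in wild type (gap -0.43). Gpc6 had -0.25 in the knockout and 0.10 in wild type (gap -0.35). Other probe sets of these genes were mixed. Sdc4 1417654_at had opposite signs too, at 0.26 in the knockout and -1.55 in wild type (gap 1.81). So did Cd44 1423760_at (-0.33 in the knockout and 0.34 in wild type) and Gpc6 1419689_at (-0.18 and 0.28). Other probe sets had the same sign in both genotypes: for Cd44, 1452483_a_at had -0.70 in the knockout and -0.62 in wild type. For Gpc6, 1428774_at had -0.05 in the knockout and -0.25 in wild type, and 1441438_at had 0.37 in the knockout and 0.29 in wild type. Each of these gaps includes the ET-1-treated wild-type array, whose control transcripts had the wide end-to-end gap.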

How the results depend on the processing

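Under the 6 alternatives per gene, 5 or 6 of the 9 members were called for genotype, and Gpc1, Gpc3, Gpc4 and Cd44 were called in each. Subtracting array medians or quantile normalization added Sdc4, and the mean of all probe sets put Sdc2 in place of Sdc3. The count over all genes ran from 1497 with no filter to 2322 with array medians subtracted. In the fit over probe sets, with no filter (34958 tested) 2 of the 7 member calls passed, 1 each of Gpc4 and Cd44, and the 5 others had an adjusted p of 0.0504 to 0.0682. Array medians subtracted gave 2917 calls over all probe sets, against 1769, and 10 member calls. For ET-1 in wild type, the count of members at 2-fold or more was 1 with the mean of all probe sets (Sdc4, -1.08) and 4 at 1.5-fold (Sdc1, Sdc4, Gpc1 and Gpc4), against 0. The ET-1 fit called 0 genes in each alternative, with 561 to 955 at an unadjusted p under 0.05. Among list genes, calls of Glce, Chst12, Cemip2, Msn, Agrn, Col18a1 and Vim were lost with no filter. Those of Cemip2, Msn and Vim were lost without the intensity trend, and those of Glce and Msn with the mean of all probe sets. With that mean, Csgalnact1, Chst15, Tiam1 and Dsp did not pass the level filter and were not tested. Except where probe set summary or the number of features tested differ by construction, the cause was not tested. Leaving out the ET-1-treated wild-type array, an alternative chosen after seeing the data, leaves no residual degree of freedom and gives the untreated differences as values, from -1.63 for Gpc4 to 1.25 for Gpc3, with Sdc1 at 0.40 in place of -0.16. No paired analysis was possible because each group has 1 array. The number of arrays and dim wild-type or knockout values near or below the filter limit the sizes given for Gpc3, Has2, Csgalnact1, Chst15 and Hs3st1. They also limit the calls of Dsp, Krt19 and Cd14. Of these genes, all but Gpc3 passed the filter through 1 genotype alone. Csgalnact1, Hs3st1 and Dsp were not tested when the mean over the arrays had to pass the filter.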
